A study of Homo sapiens with 42 samples.

Results

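Aurora kinases are enzymes that drive the last stages of cell division: Aurora A matures the centrosomes and builds the spindle, and Aurora B corrects how chromosomes attach to it and starts the physical separation of the daughter cells. Inhibitors of these kinases let melanoma cells copy their DNA again without dividing, and such cells can leave the cell cycle in a lasting arrest called senescence. Senescent cells are known for a large cytoplasm, a busy secretory pathway, many lysosomes and, in many but not all settings, a secreted mixture of cytokines. The comparison described here is the latest time point of an inhibitor time course against its starting point. It holds 12 of the 42 arrays of the series: 4 of 1205Lu cells, an established human melanoma line, given AZD1152 at 0.5 µM for 48 h, 4 given SNS-314 at 0.05 µM for 48 h, and 4 controls taken at 0 h. The members were chosen by the treatment and hour in their titles, and the 8 treated arrays were used both together and by inhibitor. AZD1152 is known as an inhibitor with a preference for Aurora B, and SNS-314 as an inhibitor of the whole family.

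All cells were of the same line and were kept in Tu2% medium and were used before they became confluent. The labels do not say that replicates came from separate cultures, so the variation behind each p-value may be only technical. No 48 h array without inhibitor was compared, so the effect of the inhibitors and that of 48 h in culture cannot be told apart. RNA was measured on Illumina bead arrays, and a level below is a log2 normalized intensity, which compares one gene between arrays and not genes with each other. Of 20043 genes with a probe of their own, 8917 rose above background on at least 3 arrays of 1 group and were tested. With 4 arrays a group the precision is limited, and the median standard error of a pooled log2 change was 0.0981.

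Replicates correlated at 0.988 to 0.993 and treated with control arrays at 0.953 to 0.964 over the tested genes. The median raw signal was 253 to 338.6 on the controls and 210 to 268 on the treated arrays, and 20.5% to 26.4% and 23.6% to 28.6% of probes were above background. The final digits of the column names were read as chip numbers, which the labels do not state. By this reading the 12 arrays lay on 3 chips. Each of 2 chips held 2 controls and 1 array of each inhibitor, and the third held the other 4 treated arrays. Letters before these digits, read as positions, put the controls first and the 48 h arrays last on their chips. Position and group therefore cannot be told apart. In bulk RNA such as this, fewer cells of a kind and less RNA per cell cannot be told apart either. Markers of other cell types were nearly all below background: none of 7 endothelial markers was tested, 1 of 9 leukocyte markers (CD68), 1 of 8 keratinocyte markers (KRT10) and 3 of 8 fibroblast markers. Of 23 melanocyte lineage genes only 6 were tested, SOX10 among them, whereas MITF, TYR, PMEL and MLANA, on the array, were not above background by this rule.

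Groups were compared by limma's moderated test, with Benjamini-Hochberg adjustment over all genes tested. At 48 h, with the 2 inhibitors pooled, 4564 of 8917 genes (51.2%) differed from the 0 h controls at an adjusted p under 0.05. Of these, 2264 were higher (25.4%) and 2300 lower (25.8%), and 283 (3.17%) had changed at least 2-fold, 119 upward (1.33%) and 164 downward (1.84%). In 1457 genes (16.3%) every treated array lay above every control, and in 1630 (18.3%) every treated array lay below. The median change over all genes was -0.005 on the log2 scale, after a quantile normalization that gives every array the same distribution. With AZD1152 alone 3791 genes differed from the controls (42.5%), with 20.8% higher and 21.8% lower. With SNS-314 alone, set against the same controls, 4036 differed (45.3%), with 22.3% higher and 23% lower. Since so many genes changed, a list is described below by its counts, its median and the size of its members' changes. Without the filter on dim genes 4549 of 20043 were called, a share of 22.7%. Of the 8917 genes 500 were below background on all controls or on all treated arrays, so they passed the filter only through other arrays. The other 8417 are called measured in both groups, and a list that holds more than 1 of the 500 and rose is also given without them.

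**Figure D1:**
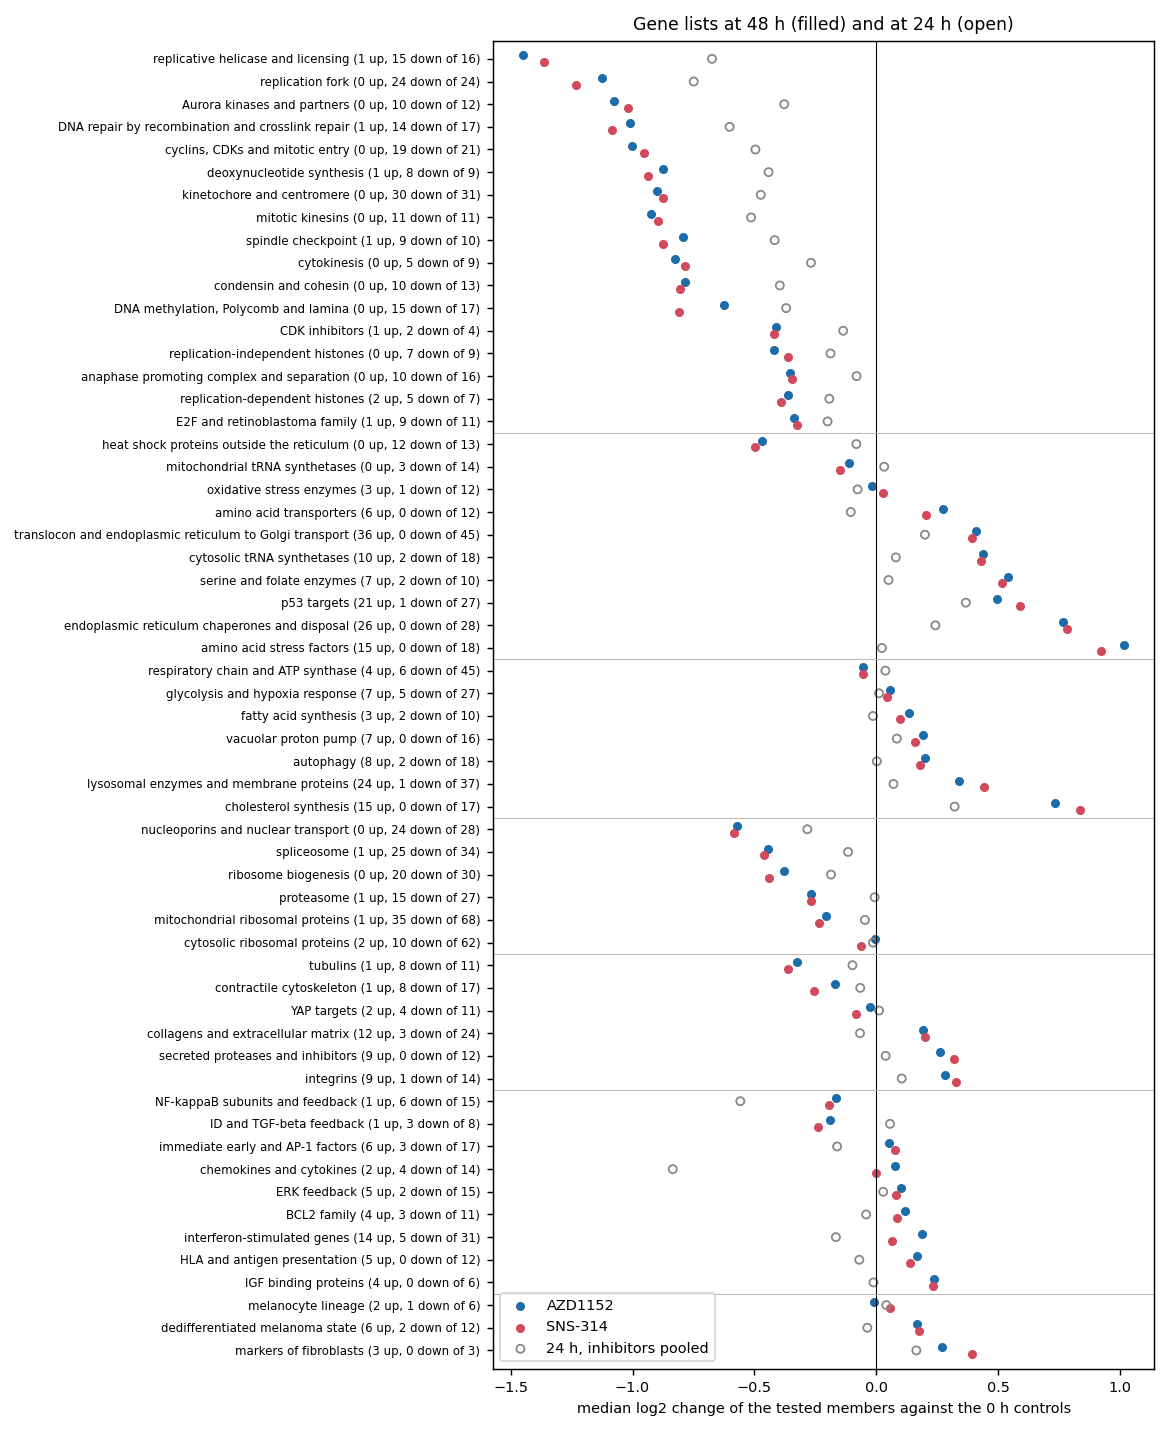
Median log2 change of the tested members of each gene list against the 0 h controls, for AZD1152 and SNS-314 at 48 h (filled points) and for both inhibitors pooled at 24 h (open points), with the number of members that rose or fell at 48 h in the pooled test. Replication and mitosis lists lie farthest to the left, from -1.449 for the replicative helicase with AZD1152, and amino acid stress factors farthest to the right, at 1.017 with AZD1152.

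The machinery that copies DNA fell nearly as a whole. The replicative helicase and the factors that load it at origins fell in 15 of 16 tested genes (19 listed), with a median log2 change of -1.379, and the replication fork list fell in 24 of 24 (26 listed), with a median of -1.178 against -0.005 for all genes. GINS2, a subunit of the helicase that unwinds DNA, had levels of 12.33, 12.43, 12.22 and 12.44 in the controls, 10.59, 10.54, 10.56 and 10.36 under AZD1152, and 10.39, 10.37, 10.26 and 10.27 under SNS-314. All 8 treated arrays lay well below the 4 controls, a change of -1.94 ± 0.09 (SE), or 3.83-fold lower (adjusted p = 2.4e-20). MCM10, which helps to switch the helicase on, fell by 1.69, MCM5, a core subunit of it, by 1.68, and POLA2, a subunit of the primase that starts each new strand, by 1.57. ORC6, part of the complex that marks origins, went the other way at 0.28 and was the 1 riser of the helicase list. CHAF1B, which packs new DNA into nucleosomes, fell by 1.64. Its partner CHAF1A was not well above background on any treated array, and was at least 1.61-fold lower (adjusted p = 1.55e-15).

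The genes that feed and repair replication moved with it. Of 9 tested enzymes of deoxynucleotide synthesis 8 fell, among them TK1, the thymidine kinase of dividing cells, by 1.39 and DUT, which keeps uracil out of DNA, by 1.00. RRM2B, the ribonucleotide reductase subunit that p53 switches on, rose by 0.98 in the same list. In the recombination and crosslink repair list 14 of 17 tested genes fell and 1 rose, with BARD1, the partner of BRCA1, at -1.45 and RAD54L, a motor of strand exchange, at -1.39. Only 7 of 44 listed replication-dependent histone genes were above background, and 5 of these fell and 2 rose; H4C3 fell by 1.02. Histone genes are close copies of each other, so the probe of one may read several. H2AX, the variant that is phosphorylated at DNA breaks, fell by 0.89.

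Among the regulators of the cycle, the cyclin list fell far and the E2F list by less. E2F2, an activator of replication genes, fell by 1.87 ± 0.10 (SE), TFDP1, the DNA-binding partner of the E2F factors, by 0.99, and 9 of 11 tested genes of the E2F and retinoblastoma list fell, but its median was only -0.298. RBL2, which represses cell cycle genes in the quiet state, was the 1 that rose, at 0.34. RB1 itself was only just past the threshold at -0.29 (adjusted p = 0.0493) and not past it under 14 of 25 other settings. CDC25A, the phosphatase that frees CDK2 to act, fell by 1.58, cyclin A2 (CCNA2) by 1.27 and CDK2 2.83-fold, and 19 of 21 tested cyclins, CDKs and mitotic entry genes fell with a median of -1.002. The inhibitor of cyclin-dependent kinases p21 (CDKN1A) had levels of 13.84, 13.93, 13.73 and 14.07 in the controls, 14.85, 14.98, 14.50 and 14.81 under AZD1152, and 14.85, 14.89, 14.80 and 14.75 under SNS-314. It rose 1.88-fold with no overlap (0.91 ± 0.08, adjusted p = 1.99e-12), while CDKN2D, another inhibitor, fell by 0.84. CDKN2A and CDKN2B were on the array and not above background in any group by the rule used.

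Mitotic genes fell widely too, with list medians from -1.061 for the Aurora kinases and their partners to -0.351 for the anaphase promoting complex. AURKB, the target of both compounds, had levels of 11.54, 11.39, 11.64 and 11.44 in the controls, 10.08, 9.90, 9.80 and 10.07 under AZD1152, and 10.03, 10.04, 9.95 and 9.88 under SNS-314. The change was -1.53 ± 0.12 (SE), or 2.89-fold lower (adjusted p = 7.49e-14), and AURKA fell by 0.98. The kinetochore and centromere list fell in 30 of 31 tested genes with a median of -0.913, led by CENPU at -1.41 and SKA3 at -1.36, and the mitotic kinesins fell in 11 of 11. In the spindle checkpoint list 9 of 10 fell, with TRIP13, which takes the checkpoint complex apart, at -1.20, and MAD1L1 rose at 0.37. FBXO5, a brake on the anaphase promoting complex, fell by 1.27 and CDC20, its activator, by 1.25. The complex's list as a whole fell less, with 10 of 16 lower and a median of -0.351, and of 9 cytokinesis genes only 5 fell, with CEP55, needed for the final cut between daughter cells, at -1.12.

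Chromosome structure followed. CDCA5, which protects sister chromatid cohesion, fell by 1.67, NCAPG, a condensin subunit, by 1.29 and topoisomerase II alpha (TOP2A) by 1.08. UHRF1, which guides DNA methylation to newly copied strands, had levels of 13.12, 13.42, 13.18 and 13.25 in the controls, 11.46, 11.44, 11.39 and 11.44 under AZD1152, and 11.23, 11.15, 11.45 and 11.23 under SNS-314. That is a change of -1.89 ± 0.07 (SE), or 3.71-fold lower, with the smallest standard error of the genes named here. SUV39H1, a methyltransferase of silent chromatin, fell by 1.29, and TMPO, a lamina-associated protein, fell by 1.28. LMNB1, lamin B1, whose loss is a textbook feature of senescent cells, fell by 0.60 ± 0.14, but its treated and control arrays overlapped, with a treated maximum of 9.84 and a control minimum of 9.81. MKI67, the proliferation marker Ki-67, was not well above background on any of the 8 treated arrays and was at least 1.61-fold lower (adjusted p = 2.45e-12).

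**Figure D2:**
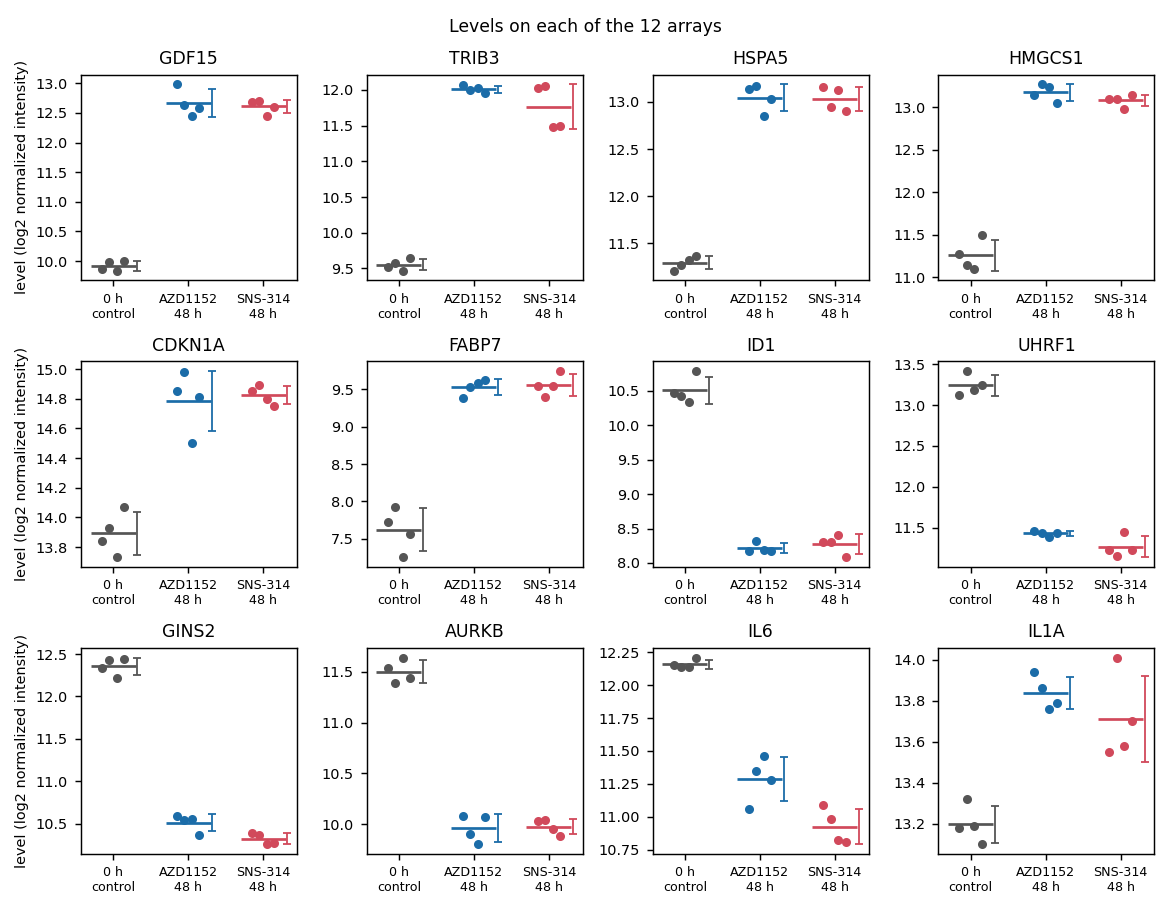
Level of 12 genes on each of the 12 arrays (log2 normalized intensity, an axis of its own for each gene that does not start at 0). Points are arrays, horizontal lines group means and bars ± 1 SD (n = 4); in each panel both treated groups lie on the same side of the controls and no treated array overlaps a control.

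Promoters of these lists hold short sequence elements that are known in dividing cells, and the windows below are shown because the genes they belong to fell or rose together. The windows come from RefSeq (GRCh38.p14), cover at most 250 bases before a gene's start site, and were searched on both strands. In the pair of replication lists 38 of 45 genes had an entry, and 7 of them (18.4%) held the E2F site TTTCCCGC, against 1.4% of all 27305 promoters, and 3 (7.9%) held TTTGGCGC, against 0.6%. In the 4 mitosis lists 56 of 69 genes had an entry, and 15 (26.8%) held TTTGAA, the cell cycle homology element, against 13.6%, while 35 (62.5%) held CCAAT against 33.0%. CCAAT was more frequent in some lists that rose, in 80.0% of the endoplasmic reticulum chaperone genes and 82.4% of the cholesterol genes. It was less frequent in others, in 42.4% of the amino acid stress, serine and tRNA synthetase genes and 33.3% of the lysosomal genes. CCAAT therefore sets the mitosis lists apart from some of the lists that rose and not from all of them. GINS2 and MCM6, a core helicase subunit (-1.26), carry the E2F letters, AURKB a CCAAT box, and SPC25, a kinetochore protein (-1.27), the homology element 247 bases before its start site. The lines give each window on the gene's own strand, with the matching bases in capitals, whichever strand the match lies on.
GINS2, chr16:85688958-85689005, minus strand: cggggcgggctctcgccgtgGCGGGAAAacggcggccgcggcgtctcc
MCM6, chr2:135876506-135876553, minus strand: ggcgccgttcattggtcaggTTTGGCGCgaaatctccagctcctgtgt
AURKB, chr17:8210354-8210398, minus strand: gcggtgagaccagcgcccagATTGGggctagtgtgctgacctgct
SPC25, chr2:168890652-168890680, minus strand: ttaTTTGAAgccgataaatgacttgtcgt

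A match is a description of these letters and not a tested site. The same search gave 7 of 30 (23.3%) endoplasmic reticulum chaperone genes with the endoplasmic reticulum stress element (a CCAAT box, a spacer of any bases and CCACG), against 0.1% of all promoters, and 6 of 59 (10.2%) genes of the amino acid lists with TGATGNAA, an element read by ATF4 and its partners, against 3.2%. For TCACGTGA, the lysosomal element, it gave 4 of 30 (13.3%) lysosomal genes against 0.9%. The same letters were in 3 of 38 (7.9%) genes of the replication lists, which fell. They were in 1 of 17 (5.9%) cholesterol genes, 1 of 56 (1.8%) mitosis genes, and none of the amino acid or chaperone genes. None of 17 cholesterol genes held TCACNCCAC in this window. HSPA5, ASNS and GAA are the genes with the largest change that hold the element of their list, and their windows are given because their levels are described next.
HSPA5, chr9:125241371-125241429, minus strand: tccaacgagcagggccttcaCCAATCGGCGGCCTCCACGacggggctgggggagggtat
ASNS, chr7:97872449-97872496, minus strand: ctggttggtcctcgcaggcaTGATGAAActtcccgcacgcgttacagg
GAA, chr17:80101529-80101576, plus strand: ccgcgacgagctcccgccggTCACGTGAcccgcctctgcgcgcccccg

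The largest rises were in genes of the stress responses. GDF15, a secreted stress cytokine that both p53 and the amino acid response can switch on, had levels of 9.86, 9.98, 9.84 and 10 in the controls, 12.99, 12.64, 12.45 and 12.58 under AZD1152, and 12.69, 12.70, 12.45 and 12.60 under SNS-314. It rose 6.57-fold (2.72 ± 0.13 SE, adjusted p = 2.82e-20), more than any other gene tested. Of 27 tested p53 targets 21 rose and 1 fell, with a median of 0.52, and of the 24 measured in both groups 19 rose, with a median of 0.538: TP53INP1, a promoter of cell death and autophagy, rose by 0.98 and MDM2, the ligase that destroys p53, by 0.75. Both TP53INP1 and MDM2 were above background on only 2 of 4 controls. The p53 gene itself was not analysed here. At 24 h, in a test against the same controls that called 2176 genes (24.4%; 11.4% higher and 13% lower), 21 of the 27 were also higher.

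The amino acid stress response was stronger at 48 h than at 24 h. When cells lack amino acids or fold proteins badly, the factor ATF4 is translated and switches on transporters, synthesis enzymes and tRNA charging enzymes. Of 18 tested amino acid stress factors 15 rose and none fell, with a median of 0.968, and 12 of the 15 measured in both groups rose, with a median of 0.983. At 24 h 5 of the 18 had already risen, DDIT3 among them at 0.36, and 2 had fallen. TRIB3, a pseudokinase that damps the response, had levels of 9.52, 9.57, 9.47 and 9.65 in the controls, 12.07, 12.00, 12.02 and 11.95 under AZD1152, and 12.02, 12.06, 11.48 and 11.50 under SNS-314. It rose 5.05-fold at 48 h (2.34 ± 0.15 SE, adjusted p = 4.72e-17), and its 24 h change was 0.05 (adjusted p = 0.864 by the same limma fit). DDIT3, known as CHOP, rose by 2.25 and ASNS, the asparagine synthetase, by 1.87. DDIT3 was above background on only 2 of 4 controls. The serine and folate enzymes rose in 7 of 10, with PSAT1 at 1.35, MTHFD2 at 0.97 and PHGDH at 0.91, and the 2 that fell were SHMT1 at -0.78 and MTHFD1 at -0.69, both cytosolic folate enzymes. Of 12 amino acid transporters 6 rose and none fell, and 5 of the 10 measured in both groups rose, with a median of 0.156. SLC7A11, the cystine importer, was not well above background on any control and was at least 1.15-fold higher (adjusted p = 9.94e-11). SLC38A1, a glutamine carrier, rose by 0.80 with overlapping groups.

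The tRNA charging enzymes of the cytosol and of the mitochondria did not move alike. Of 18 tested cytosolic synthetases 10 rose and 2 fell, with a median of 0.433. WARS1, the tryptophan enzyme, had levels of 12.20, 12.31, 12.13 and 12.20 in the controls, 13.53, 13.55, 13.50 and 13.51 under AZD1152, and 13.64, 13.71, 13.33 and 13.34 under SNS-314, a 2.46-fold rise. SARS1, the serine enzyme, rose by 1.09 and MARS1, the methionine enzyme, by 0.95. Of 14 tested mitochondrial synthetases none rose and 3 fell, with a median of -0.15; MARS2, the mitochondrial counterpart of MARS1, was lower by -0.32 ± 0.08 (SE) with overlapping groups. The difference between the lists was not tested.

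Folding factors of the endoplasmic reticulum rose, and heat shock proteins outside it fell. The endoplasmic reticulum is where secreted and membrane proteins fold, and its chaperones and disposal factors rose in 26 of 28 tested genes, none falling, with a median of 0.773. HSPA5, its main chaperone, had levels of 11.21, 11.27, 11.32 and 11.37 in the controls, 13.14, 13.17, 12.85 and 13.03 under AZD1152, and 13.16, 12.95, 13.13 and 12.90 under SNS-314, a 3.35-fold rise (1.74 ± 0.11 SE, adjusted p = 4.06e-17). DNAJB9, a co-chaperone of it, rose by 2.11 and SYVN1, the ligase that marks misfolded proteins for disposal, by 1.20. Of 45 tested genes for entry into the reticulum and transport to the Golgi 36 rose and none fell, with a median of 0.399. SEC24D, which loads cargo into transport vesicles, rose by 1.21, SEC11C, a signal peptidase subunit, by 0.80 and COPG1, a coat protein of the return path, by 0.77. Of 13 heat shock proteins and partners outside the reticulum 12 fell and none rose, with a median of -0.476. The list holds HSPD1 and HSPE1, the chaperonins of the mitochondrial matrix, at -0.48 and -0.50, and without these 10 of the other 11 fell, with a median of -0.442. HSPA1B, an inducible member of the heat shock family, had levels of 12.01, 12.07, 12.08 and 12.19 in the controls, 11.39, 11.66, 11.62 and 11.40 under AZD1152, and 11.30, 11.32, 11.40 and 11.41 under SNS-314. Its change was -0.65 ± 0.11 (SE), but HSPA1B has a near-identical neighbour, so the probe may read both, and DNAJB1, a co-chaperone without such a copy, fell by 0.57. In the oxidative stress list 3 of 12 rose and 1, GCLM, a subunit of the enzyme that starts glutathione synthesis, fell by 0.49.

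**Figure D3:**
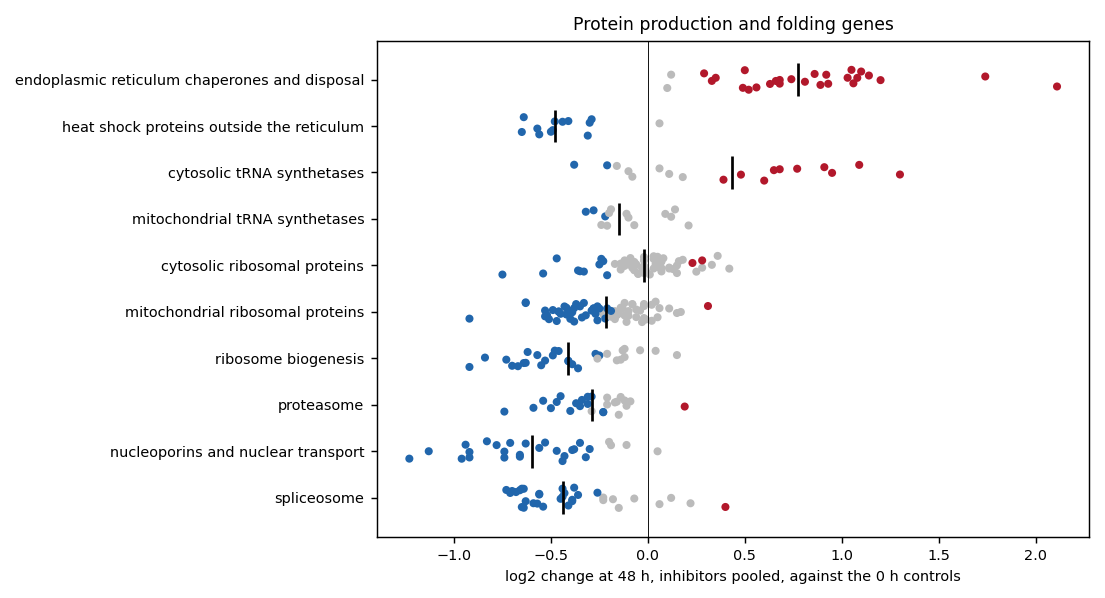
Log2 change at 48 h of each tested member of 10 lists of protein production, folding and transport genes, inhibitors pooled against the 0 h controls. Each point is a gene (red, rose; blue, fell; grey, adjusted p of 0.05 or above) and black bars are list medians, 0.773 for endoplasmic reticulum chaperones and -0.476 for heat shock proteins outside it.

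Lists for ribosome assembly, nuclear transport and splicing fell in most of their members, and ribosomal proteins of the cytosol did not. Of 30 tested ribosome biogenesis genes 20 fell and none rose, with a median of -0.407; MRTO4 and BOP1, both needed to assemble the large subunit, fell by 0.92 and 0.84. Cytosolic ribosomal proteins had far fewer calls: 10 of 62 fell, 2 rose and the median was -0.02. Mitochondrial ribosomal proteins fell in 35 of 68 and rose in 1, with a median of -0.215, led by MRPL12 at -0.92. The proteasome list fell in 15 of 27 and rose in 1, with PSMA2, a subunit of the core, at -0.74 and PSMC3, a subunit of the cap, at -0.59. The nucleoporin and nuclear transport list fell in 24 of 28 with a median of -0.596, the lowest of these lists. NUP85, a scaffold of the pore, had levels of 11.72, 11.81, 11.82 and 11.73 in the controls, 10.81, 10.60, 10.73 and 10.74 under AZD1152, and 10.42, 10.89, 10.48 and 10.46 under SNS-314, 2.19-fold lower with no overlap. RCC1 and RANGAP1, which set the direction of transport and also serve the mitotic spindle, fell by 1.23 and 0.96. Of 34 spliceosome genes 25 fell and 1 rose, with SNRPA1 at -0.73 and HNRNPC at -0.70.

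Cholesterol synthesis genes and lysosomal genes mostly rose. Of 17 tested cholesterol synthesis genes 15 rose and none fell, with a median of 0.828. HMGCS1, the enzyme that makes the precursor of the whole path, had levels of 11.28, 11.15, 11.10 and 11.50 in the controls, 13.14, 13.27, 13.24 and 13.05 under AZD1152, and 13.10, 13.10, 12.98 and 13.14 under SNS-314, a 3.65-fold rise (1.87 ± 0.09 SE). INSIG1, which holds the sterol sensor back when cholesterol is ample and is itself a target of that path, rose by 1.38. Fatty acid synthesis did not follow as a list: 3 of 10 rose, with the desaturase SCD at 0.64, and 2 fell, with the elongase ELOVL6 at -0.30. Of 37 tested lysosomal genes 24 rose and 1 fell, with a median of 0.396, and of the 34 measured in both groups 22 rose, with a median of 0.387. CTSO, a protease, rose by 0.76 but was above background on only 1 of 4 controls, and GAA, the enzyme that breaks down glycogen, was not well above background on any control and was at least 1.21-fold higher. The vacuolar proton pump that acidifies lysosomes rose in 7 of 16, with ATP6V1H at 0.48. In the autophagy list 8 of 18 rose and 2 fell. WIPI1, which marks the forming autophagosome, had levels of 10.26, 10.27, 10.12 and 10.32 in the controls, 11.61, 11.75, 11.46 and 11.56 under AZD1152, and 11.89, 11.91, 11.53 and 11.36 under SNS-314, 2.62-fold higher. GABARAPL1 and MAP1LC3B, which are attached to its membrane, rose by 0.60 and 0.58.

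Respiratory chain genes had fewer calls than the tested genes as a whole, of which 51.2% were called. Of 45 tested respiratory chain and ATP synthase genes 4 rose and 6 fell, with a median of -0.062, and ATP5F1D fell by 0.37 with overlapping groups. In the glycolysis and hypoxia list 7 of 27 rose and 5 fell, with a median of 0.065. Of all tested genes 25.4% rose and 25.8% fell, so the list's share of rises was near that of all genes. The rises included SLC2A3, a high-affinity glucose carrier, at 1.20 and P4HA1, an enzyme of collagen maturation, at 0.81.

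The secreted inflammatory factors were not raised as a group. Of 14 tested chemokines and cytokines (28 listed) 4 fell, 2 rose and the median was 0.073. CCL2, the chemokine that draws monocytes, had levels of 13.95, 14.01, 13.93 and 14.02 in the controls, 12.32, 12.42, 12.26 and 12.27 under AZD1152, and 12.20, 12.37, 12.16 and 12.27 under SNS-314. It was 3.23-fold lower with tight groups (-1.69 ± 0.13 SE, adjusted p = 2.72e-14). IL6, interleukin 6, had levels of 12.15, 12.14, 12.14 and 12.21 in the controls, 11.06, 11.35, 11.46 and 11.28 under AZD1152, and 11.09, 10.98, 10.82 and 10.81 under SNS-314, a change of -1.05 ± 0.11. CXCL1, a chemokine for neutrophils, fell by 1.44 and CXCL8, interleukin 8, by 0.61. IL1A, interleukin 1 alpha, which acts upstream of IL6 and CXCL8 in senescent cells, went the other way, with levels of 13.18, 13.32, 13.19 and 13.10 in the controls, 13.94, 13.86, 13.76 and 13.79 under AZD1152, and 13.55, 14.01, 13.58 and 13.70 under SNS-314. It rose by 0.57 ± 0.13 (adjusted p = 0.000448) with no overlap. IL1B had a difference of 0.17 ± 0.11 (adjusted p = 0.203) at levels of 15.21 to 15.61, near the top of the scale at 15.97. In the list of NF-kappaB subunits and feedback genes, the family that drives these cytokines, 6 of 15 fell and 1 rose, with BCL3 at -0.52 and NFKBIE at -0.42.

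Set against 24 h, most of these genes were higher at 48 h. The 8 arrays at 48 h were compared with 8 at 24 h of the same inhibitors, and 3747 genes differed (42%), 1822 of them higher at 48 h (20.4%) and 1925 lower (21.6%). By the column names, the last replicate of each inhibitor at 24 h lay on a chip with no 48 h or control array. Of the 14 tested chemokines and cytokines 11 were higher at 48 h and none lower, with a median difference of 0.912. Against the shared 0 h controls the list's median was -0.835 at 24 h, when 10 had fallen, and 0.073 at 48 h. CXCL8 was at -2.66 at 24 h and -0.61 at 48 h, IL6 at -2.28 and -1.05, and CCL2 at -2.52 and -1.69. IL1A passed from -0.69 to 0.57, and IL1B from -0.83 to 0.17. The NF-kappaB list was higher at 48 h in 11 of 15 with none lower.

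Interferon-stimulated genes, the antiviral set that DNA in the cytosol can switch on, were also more often higher than lower at 48 h than at 24 h. Of 31 tested genes (40 listed) 14 rose and 5 fell against the controls at 48 h, and 17 were higher and 1 lower than at 24 h. With AZD1152 alone 13 rose and 4 fell, with a median of 0.187. With SNS-314 alone 8 rose and 4 fell, with a median of 0.066. Of all genes 20.8% rose with AZD1152 and 22.3% with SNS-314, so the SNS-314 share was near that of all genes. No member differed between the inhibitors past the threshold. At 24 h none had risen against the controls and 6 had fallen. GBP2, a guanylate binding protein, had levels of 8.29, 8.38, 8.47 and 8.30 in the controls, 9.53, 9.37, 9.44 and 9.15 under AZD1152, and 9.47, 9.22, 9.37 and 9.32 under SNS-314. Its change was 1.00 ± 0.09 (SE) at 48 h, its 24 h difference of -0.17 did not pass the threshold (adjusted p = 0.184 by limma), and it was above background on 1 of 4 controls and all 8 treated arrays. IFIT1, an RNA binding antiviral protein, rose by 0.77 and IFIH1, the sensor MDA5, by 0.66. USP18, which shuts the interferon receptor off, was the lowest of the list at -0.57. Of 12 tested antigen presentation genes 5 rose and none fell. CALR, a chaperone of this path that the reticulum list also holds, rose by 0.89 and HLA-DMA, which loads peptides on class II molecules, by 0.65.

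**Figure D4:**
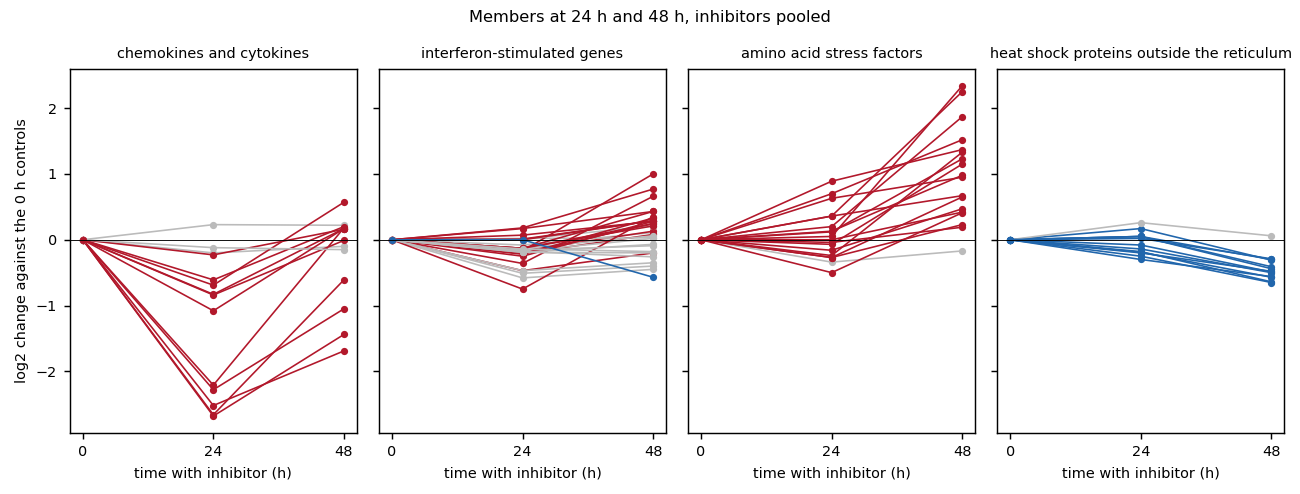
Log2 change of each tested member of 4 lists against the 0 h controls at 24 h and 48 h, inhibitors pooled (time in hours on the x axis, lines join the values of a gene). Red and blue lines mark genes that were higher or lower at 48 h than at 24 h in the test between those arrays, grey the rest; 11 of 14 cytokines and 17 of 18 amino acid stress factors were higher at 48 h, and 12 of 13 heat shock proteins outside the reticulum lower.

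The comparison with 24 h also dated the other groups. Amino acid stress factors were higher at 48 h than at 24 h in 17 of 18, from a 24 h median of 0.023, and the heat shock proteins outside the reticulum were lower in 12 of 13, from -0.082. Endoplasmic reticulum chaperones were higher than at 24 h in 25 of 28, cholesterol synthesis genes in 14 of 17. Replication fork genes went on falling in 23 of 24. UBE2C, the ubiquitin carrier of the anaphase promoting complex, had already reached -1.09 at 24 h, and its further difference of -0.09 was not past the threshold (adjusted p = 0.343). VCAN, a matrix proteoglycan, was likewise at 1.05 at 24 h and 0.89 at 48 h. Both times were set against the same 4 controls, so their values are given side by side and were not related to each other.

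The cell surface and its surroundings changed in a mixed way. In the collagen and extracellular matrix list 12 of 24 tested genes rose and 3 fell. LAMA4, a laminin chain, rose by 0.74. THBS1, an inhibitor of vessel growth, had levels of 14.07, 14.08, 13.77 and 14.02 in the controls, 13.17, 13.27, 13.01 and 13.26 under AZD1152, and 13.31, 13.36, 13.12 and 12.98 under SNS-314, 1.74-fold lower. The 3 fibroblast markers above background, PDGFRA, PDGFRB and FAP, also rose, FAP by 0.41, and their summed linear signal was 4666 to 4891 in the controls, 5794 to 6194 with AZD1152 and 5990 to 6645 with SNS-314. COL3A1, LUM, DCN, THY1 and POSTN, the other 5 markers, were not above background, and a part of such cells in the rises of matrix genes was not tested. Of 14 integrins 9 rose and 1 fell, with ITGA9 at 0.75, and ITGA10, not well above background on any control, at least 1.31-fold higher. Of 12 secreted proteases and their inhibitors 9 rose and none fell, with the metalloprotease ADAMTS1 at 0.49, and IGFBP5 and IGFBP3, which bind insulin-like growth factors, rose by 0.57 and 0.49. Tubulins fell in 8 of 11, TUBB4B by 0.79, and TUBE1, the centriolar epsilon tubulin, rose by 0.61. Of 17 contractile cytoskeleton genes 8 fell, MYH9, a non-muscle myosin, by 0.46, and 1 rose, ACTA2, the smooth muscle actin, by 0.58. YAP targets had no common direction, with 2 higher and 4 lower of 11, from FJX1 at -0.62 to DLC1 at 0.66.

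Single signalling genes changed more than their lists. ID1, which blocks differentiation factors and delays senescence in other cells, had levels of 10.47, 10.43, 10.34 and 10.79 in the controls, 8.17, 8.32, 8.19 and 8.17 under AZD1152, and 8.30, 8.31, 8.41 and 8.08 under SNS-314. It had the largest fall of all tested genes (-2.26 ± 0.10 SE, adjusted p = 4.82e-21), and since it was not well above background on any AZD1152 array and on 2 of 4 SNS-314 arrays, its fall with AZD1152 was at least 4.51-fold. ID3, its relative, fell by 1.49, with 4 of 8 treated arrays not well above background, so that its lower level is uncertain. The other 6 tested genes of that list, targets of BMP and TGF-beta signals, gave 1 fall and 1 rise past the threshold. TXNIP, which senses glucose and restrains its uptake, fell by 0.97 and was above background on 2 of 8 treated arrays. In the ERK feedback list 5 of 15 rose, SPRY4 by 0.47, and 2 fell, the receptor EPHA4 by 0.74. Of 17 immediate early and AP-1 factors 6 rose and 3 fell, with KLF4 at 0.81 and EGR1 at 0.65. In the BCL2 family, which decides on cell death, 4 of 11 rose and 3 fell, with BCL2L12 at -0.87, and of the 9 measured in both groups 2 rose and 3 fell. BBC3, known as PUMA, had levels of 7.65 to 8.32 in the controls and 8.25 to 8.80 in the treated arrays, above background on none of the former and 7 of the latter, and the groups overlapped.

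The melanoma identity genes that could be read moved in both directions. Of 6 tested melanocyte lineage genes 2 rose and 1 fell: S100A1, a calcium binding protein, rose by 0.49 and MC1R, the melanocortin receptor, fell by 0.51. In the list of the dedifferentiated melanoma state 6 of 12 rose and 2 fell. With AZD1152 alone 2 rose and 2 fell, and with SNS-314 alone 5 rose and 3 fell. CDH2, N-cadherin, had levels of 12.05, 12.08, 11.99 and 12.09 in the controls, 11.43, 11.10, 11.12 and 11.11 under AZD1152, and 11.23, 10.77, 11.03 and 11.11 under SNS-314, 1.92-fold lower. AXL, a receptor kinase of that state, fell by 0.45, and ERBB3, a neuregulin receptor that the same list holds, rose by 0.72. Since CDH2 and AXL fell, the count of rises is not read as a rise of that state.

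Several of the largest rises belonged to no list. FABP7, a fatty acid binding protein of glia and of some melanomas, had levels of 7.73, 7.93, 7.25 and 7.57 in the controls, 9.39, 9.53, 9.59 and 9.63 under AZD1152, and 9.54, 9.40, 9.55 and 9.75 under SNS-314. None of the controls was well above background and all 8 treated arrays were, at least a 1.86-fold rise (adjusted p = 1.62e-19). CPVL, a carboxypeptidase, went from 8.26, 8.33, 8.11 and 8.26 in the controls to 9.83, 9.86, 9.87 and 9.98 under AZD1152 and 9.86, 10.03, 9.92 and 10.01 under SNS-314, at least 2.4-fold higher by the same reasoning. TAC1, which encodes substance P, had levels of 9.35, 9.16, 9.04 and 9.11 in the controls, 11.25, 11.02, 10.91 and 10.41 under AZD1152, and 10.86, 10.77, 10.11 and 10.43 under SNS-314. It was 2.94-fold higher at 48 h and lower at 24 h, with a change of -0.37 (adjusted p = 0.0255). ITIH6, of the family of inter-alpha-trypsin inhibitor heavy chains, rose by 1.74, PTPRZ1, a receptor phosphatase of neural cells, by 1.53, and C11orf96 by 1.66 after a 24 h difference of -0.24 that did not pass the threshold.

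AZD1152 and SNS-314, given at different doses, were also compared with each other. No gene differed at an adjusted p under 0.05 (0%), and 270 genes (3.03%) had an unadjusted p under 0.05. By the column names, same-numbered arrays of the inhibitors lay on 1 chip in all 4 pairs, with residual correlations of 0.0671 to 0.288. With the replicate number as a block in a fit of the 12 arrays, limma called 1 gene, GNB4, at -0.68 (adjusted p = 0.00595), and 509 genes (5.71%) had an unadjusted p under 0.05. The median absolute difference was 0.071 and its 95th percentile 0.215. For 8464 genes (94.9%) the 95% interval of the difference lay within 0.5 on the log2 scale in either direction, and for 8912 (99.9%) within 1. Among the genes with the largest responses the difference, AZD1152 minus SNS-314, was 0.06 for GDF15 (95% interval -0.25 to 0.37), 0.01 for HSPA5 (-0.24 to 0.26), -0.06 for ID1 (-0.30 to 0.18) and -0.01 for AURKB (-0.30 to 0.27). Under SNS-314 IL6 had fallen by 1.23, and under AZD1152 it had fallen by 0.87, a difference of 0.36 (0.11 to 0.61) that did not pass after adjustment. The widest difference of any gene, chosen after its value was seen, was that of SLC4A5, a bicarbonate transporter, at -1.05 (-1.84 to -0.26). These intervals bound how far the responses could differ and do not show that the compounds act alike.

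**Figure D5:**
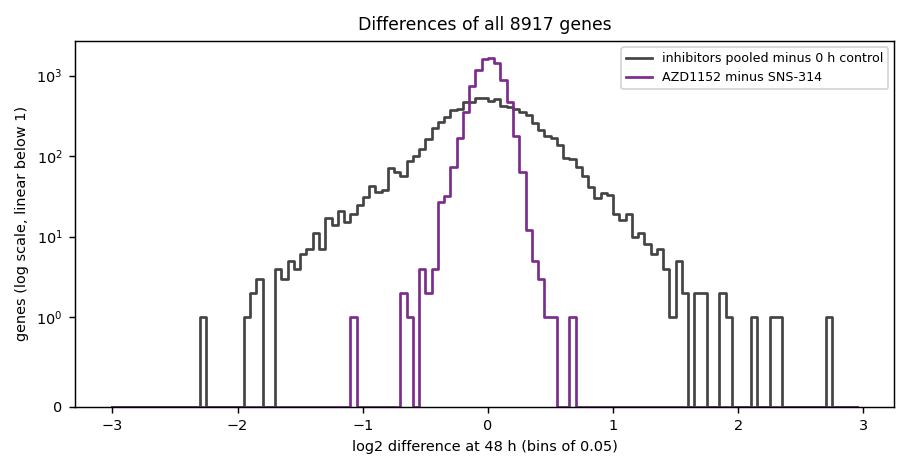
Number of genes by log2 difference at 48 h, in bins of 0.05, for both inhibitors pooled against the 0 h controls and for AZD1152 minus SNS-314 (y axis on a log scale, linear below 1). The difference between the inhibitors spans -1.05 to 0.7, against -2.26 to 2.72 for the pooled change.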

How the data were processed

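The deposited table of raw probe values holds, per the file headers, the average intensity of each of 47312 probes on 42 Illumina arrays, with no detection p-value; the authors also deposited log2 values of the same arrays, whose normalization is not given in the sources used here and which served as an alternative. Array columns were tied to samples through the second header line of the raw table, which matched the deposited log2 columns for all 42; the first line matched 1. Background correction (normexp, offset 50), quantile normalization and the log2 transform were done in limma 3.58.1 in R 4.3.3. A probe was above background where it passed the 0.95 quantile of a normal curve fitted below the mode of its array, and was kept where that held on at least 3 arrays of 1 group (13481 probes). The brightest kept probe stood for its gene, named from the platform annotation (30110 probes with 1 symbol, 8 with several, 17194 with none) and RefSeq. A model with a mean per group was fitted to all 42 arrays (42 residual degrees of freedom after moderation), with Benjamini-Hochberg adjustment at 0.05. The method was tested on simulated data. "At least" folds compare the brighter group's mean with the lowest signal above background, or the gene's own signal where higher, array by array.

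Genes named are a fixed set of division, senescence and cytokine genes, the 15 highest and 15 lowest changes with groups that do not overlap, and the top 3 called members of each list; ORC6, RRM2B, RBL2, MAD1L1, SHMT1, MTHFD1, USP18, MCM6, SPC25 and SLC4A5 were added after their values were seen. Also named outside this rule are HSPD1, HSPE1, the listed cell type markers, and GNB4 and TMIGD3, called between the inhibitors under other settings. Members and lists were chosen with earlier results of these data known. The comparison with 24 h was added after the data were seen. The alternatives were the deposited values, other background, scaling, filter, probe and variance settings, the 12 arrays alone, replicate and chip blocks, and each array left out. Replicate numbers were not taken as pairs: residuals of same-numbered arrays correlated at -0.127 to 0.288.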

Additional observations from a re-analysis of the deposited data

Results flagged for a closer look

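Of 426 gene and group combinations looked at (142 genes, 3 groups of 4 arrays), 23 had 1 array far from the other 3 by Dixon's test, and chance gives about 1 in 20. Among the SNS-314 arrays, replicate 2 was high for MDM2 at 10.03, GAA at 9.13, MRPL12 at 9.15 and NUP85 at 10.89, and low for DUT at 9.91 and CXCL1 at 9.08. SNS-314 replicate 1 was low for H4C3 at 13.61 and high for TUBE1 at 9.21, replicate 3 was high for CDKN3 at 10.97, and replicate 4 was high for TP53INP1 at 9.83 and ATP5F1D at 11.53. Among the AZD1152 arrays, replicate 1 was high for MCM5 at 9.18, H2AC20 at 9.29, TXNIP at 8.27 and CDH2 at 11.43, and replicate 2 was high for MARS2 at 9.82, SPRY4 at 14.08 and ID1 at 8.32. AZD1152 replicate 4 was low for UBE2C at 12.38 and IFIH1 at 9.71. Among the controls, replicate 1 was high for CHAF1A at 9.13, and replicate 3 for KIF22 at 11.91 and RPS7 at 9.48.

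Of the named genes, 4 had passed the threshold in opposite directions at 24 h and 48 h against the shared controls. The difference between the 48 h and 24 h arrays, tested directly in limma with Benjamini-Hochberg adjustment, was 1.26 for IL1A (adjusted p = 1.88e-12), 1.02 for IFIH1 (adjusted p = 2.97e-13), 1.92 for TAC1 (adjusted p = 3.23e-19) and -0.56 for MARS2 (adjusted p = 1.07e-08).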

How the results depend on the processing

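Over 25 alternatives the pooled count of changed genes ran from 3460, with only the 6611 genes above background on all 12 arrays, to 5085 with the replicate number as a block in a fit of the 12 arrays. That replicate block gave 4409 genes for AZD1152 and 4659 for SNS-314. Leaving out 1 array at a time gave 4026 to 4490 genes pooled, 3383 to 3797 for AZD1152, 3671 to 4026 for SNS-314, and 0 to 0 between the inhibitors. With only the 2 chips that hold controls, an alternative chosen after seeing the data, 3808 genes were called. The tests at 24 h and of 48 h against 24 h were not rerun under any of the alternatives. Between the inhibitors 1 gene was called in each of 3 settings: TMIGD3 without a filter, with 791 genes at an unadjusted p under 0.05, and GNB4 with the 12 arrays alone (439) and with the replicate block (509). The median of the chemokine list, 0.073, became -0.012 with no filter and -0.013 with genes above background on all 12 arrays, and that of the fibroblast markers, 0.332, became -0.011 with no filter; the cause was not tested. List medians moved more widely than these reversals. Of 58 medians only 13 stayed, in every setting, within 1 SD of the per-array medians within groups. Of 1450 values 114 moved beyond that and 3 reversed. The cytokinesis median, -0.805, became -0.445 with no filter. That of the replication-dependent histones, -0.335, became -0.143 with no filter and -0.928 with genes above background on all 12 arrays. Of 142 named genes 139 kept their direction and side of the threshold in every setting that gave a value. RB1 lost its call, with an adjusted p of up to 0.165, ELOVL6 lost it on the 2 control-holding chips (0.0722), and IL1B gained one with the chip as a fixed block (0.0428). Signals near background limit dim genes: the lowest level above it was 8.17 to 9.03 across arrays, so a fall beyond that cannot be measured.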
